A study of Homo sapiens with 12 samples.

Results

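A set of 10 heat shock genes was followed through the RNA sequencing of drug-treated myeloma cells: the transcription factor gene HSF1 and the chaperone and cochaperone genes DNAJB1, HSPH1, HSPA8, HSP90AA1, HSP90AB1, HSPB1, BAG3, HSPD1 and HSPE1. They were taken by name, by a rule that uses no measured value but was set with earlier results of these data known, and all 10 were found among the 38478 genes of the matrix and were among the 11241 genes that passed the filter on low values. The others apart from HSF1, HSPD1 and HSPE1 encode cytosolic proteins of the chaperone system. HSPD1 and HSPE1 encode the chaperonin of the mitochondrial matrix and its lid, so the name cytosolic does not hold for them. HSF1 is no chaperone but a factor that induces chaperone genes under stress. OPM-1 is an established human multiple myeloma cell line, a malignancy of plasma cells. The cells received DMSO as vehicle, 0.1 μM lenalidomide (LEN), an immunomodulatory drug that directs the degradation of IKZF1 and IKZF3, 1 μM AI-10-104, which blocks RUNX transcription factors, or the pair together (LEN+AI-10-104), each for 48 h. Polyadenylated RNA was sequenced from 3 biological replicates per condition, 12 samples in all, and no heat treatment is named in the labels. All samples came from 1 cell line, and each drug was given at 1 dose and read at 1 time, so the values describe OPM-1 cells at that point only.

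When unfolded proteins accumulate in the cytosol, HSF1 is released from chaperones, forms trimers, enters the nucleus and binds heat shock elements, inverted repeats of nGAAn, in the promoters of chaperone genes. The products work as a relay: HSP40 proteins such as DNAJB1 and the small heat shock protein HSPB1 hold unfolded clients, HSP70 proteins such as HSPA8 refold them with the help of exchange factors such as HSPH1 and BAG3, and the HSP90 proteins finish the folding of kinases, receptors and transcription factors. Plasma cells secrete large amounts of immunoglobulin and carry a high protein folding load, and myeloma cells are known for their dependence on chaperones and on the proteasome.

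The reads on genes ranged from 16352548 to 31386210 per sample and were fewest in LEN+AI-10-104. Values are given as RPKM, reads on a gene scaled by its length and by the reads on all genes of the sample. The members rested on 506 to 135840 reads per sample, so that counting error was at most 4.45% of any value, and replicates differed by more than counting error alone. The 8 plasma cell markers summed to between 1240 and 1540 RPKM per sample, highest in AI-10-104 (1480 to 1540), while of the T cell, myeloid and stromal markers no list summed to more than 0.551 RPKM in any sample. CD79B accounted for nearly all of the mature B cell markers' sum of 5.29 to 6.94 RPKM, and the other 3 of those 4 genes had at most 3 reads in every sample. In bulk RNA, fewer expressing cells and less RNA per cell cannot be told apart.

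The promoters of the members whose values the results turn on are shown here, because heat shock elements are where HSF1 binds. Each window runs from 250 bases before to 50 bases after an annotated start, 5′ to 3′ on the strand of the gene, from RefSeq on GRCh38.p14, and 9 of the 10 members had at least 1 window, HSF1 being the exception. Capitals mark the heat shock elements found, the letters GAANNTTC or TTCNNGAA, each of which reads the same on both strands, and overlapping elements run together. DNAJB1, HSPA8 and HSP90AA1 were the members that differed most between replicates, and HSPD1 and HSPB1 were those that passed a test between conditions. For genes with more than 1 start, the window with the elements upstream of the start is given.
DNAJB1 (chr19:14518348-14518647, minus strand): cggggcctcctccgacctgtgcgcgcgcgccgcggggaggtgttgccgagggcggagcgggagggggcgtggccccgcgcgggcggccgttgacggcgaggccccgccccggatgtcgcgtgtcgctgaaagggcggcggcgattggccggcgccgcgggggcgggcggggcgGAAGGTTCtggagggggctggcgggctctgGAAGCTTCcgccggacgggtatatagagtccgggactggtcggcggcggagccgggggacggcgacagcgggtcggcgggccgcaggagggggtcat
HSPA8 (chr11:123062087-123062386, minus strand): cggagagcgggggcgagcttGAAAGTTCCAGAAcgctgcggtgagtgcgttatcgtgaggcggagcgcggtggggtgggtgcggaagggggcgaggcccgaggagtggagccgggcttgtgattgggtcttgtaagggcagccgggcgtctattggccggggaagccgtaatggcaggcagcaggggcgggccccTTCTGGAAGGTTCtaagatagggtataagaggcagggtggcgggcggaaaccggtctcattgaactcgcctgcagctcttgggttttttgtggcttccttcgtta
HSP90AA1 (chr14:102086995-102087294, minus strand): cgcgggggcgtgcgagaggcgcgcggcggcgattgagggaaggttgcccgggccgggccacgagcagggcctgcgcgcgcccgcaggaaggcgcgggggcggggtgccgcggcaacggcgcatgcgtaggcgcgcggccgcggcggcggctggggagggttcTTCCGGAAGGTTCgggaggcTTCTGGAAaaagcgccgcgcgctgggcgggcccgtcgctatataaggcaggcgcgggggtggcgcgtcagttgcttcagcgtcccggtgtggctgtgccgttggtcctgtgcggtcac
HSPD1 (chr2:197499791-197500090, minus strand): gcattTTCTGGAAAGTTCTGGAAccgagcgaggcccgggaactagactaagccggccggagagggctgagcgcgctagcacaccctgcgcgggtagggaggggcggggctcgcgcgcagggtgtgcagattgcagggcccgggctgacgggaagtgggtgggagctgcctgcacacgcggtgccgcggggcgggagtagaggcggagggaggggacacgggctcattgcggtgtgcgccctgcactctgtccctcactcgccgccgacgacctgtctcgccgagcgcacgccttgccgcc
HSPB1 (chr7:76302423-76302722, plus strand): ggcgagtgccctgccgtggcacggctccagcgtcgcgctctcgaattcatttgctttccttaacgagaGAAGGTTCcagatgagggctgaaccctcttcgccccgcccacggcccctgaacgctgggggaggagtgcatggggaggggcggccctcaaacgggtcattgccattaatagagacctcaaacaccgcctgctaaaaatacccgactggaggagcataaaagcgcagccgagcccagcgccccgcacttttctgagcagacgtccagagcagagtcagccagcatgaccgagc

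At least 1 such element was found for 6 of the 9 members with a window, compared with 16.2% of the 27305 genes with promoter windows. The longer form with 3 alternating units (GAANNTTCNNGAA or TTCNNGAANNTTC), within which 2 of the shorter elements always overlap, was found for 4 of the 9, HSPA8, HSP90AA1, HSP90AB1 and HSPD1, compared with 0.608% of all genes. HSPH1, BAG3 and HSPE1 held none of these letters in their windows. The HSPE1 window begins at base 197500129 of chromosome 2, past base 197500090 where the HSPD1 window printed above ends, and the 2 genes run in opposite directions. A second HSPD1 window, chr2:197500225-197500524, overlaps the HSPE1 window and held no element. The letters of a RUNX motif, TGTGGT or TGCGGT on either strand, were in the windows of 3 members, HSPA8, HSP90AA1 and HSPD1, compared with 22.9% of all genes. A match of letters is a description of the window and not a binding site.

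The members covered a wide range of levels. HSPA8, the constitutive HSP70 of the cytosol, averaged 1700 RPKM over the 12 samples and was the gene with the 21st highest mean in the matrix. It alone took 0.345% to 0.541% of the reads on genes, and the 10 members together took 1.07% to 1.41%. HSP90AB1, the constitutive HSP90, followed at 852 RPKM (rank 41), HSP90AA1, its inducible counterpart, at 714 RPKM (rank 54) and HSPD1, the HSP60 of mitochondria, at 654 RPKM (rank 59). The sample ranges of HSP90AB1 and HSP90AA1 overlapped, as did those of HSP90AA1 and HSPD1, but HSP90AA1 stood below HSP90AB1 in each of the 12 samples, at a ratio of 0.752 to 0.933. HSPE1, the HSP10 partner of HSPD1, averaged 119 RPKM, and HSPD1 had 5.02 to 6.7 times its RPKM in each sample. HSPH1, the HSP110 that exchanges nucleotide on HSP70, averaged 64.3 RPKM. HSPB1, the small heat shock protein HSP27, at 42.5 RPKM and DNAJB1, an HSP40 that brings clients to HSP70, at 39.7 RPKM overlapped between samples. HSF1 averaged 26.9 RPKM and BAG3, which links HSP70 to small heat shock proteins and autophagy, 12.1 RPKM, and their ranges touched no other member. HSPE1 is the least certain of these values, since 17.9% of its exon bases are shared with HSPD1 on the other strand or with the readthrough gene HSPE1-MOB4, which was listed at 0 in all 12 samples. MOB4 itself, looked up after the values were seen, had at most 5 reads per sample, so that the 0 of the readthrough gene need not mean its absence. HSPA8 and HSP90 genes have processed pseudogenes, between which reads could be divided, and HSP90AB4P had 1 to 10 reads per sample. HSP90B2P, a pseudogene of the endoplasmic reticulum HSP90 gene and of no member, had 735 to 1530 reads.

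**Figure D1:**
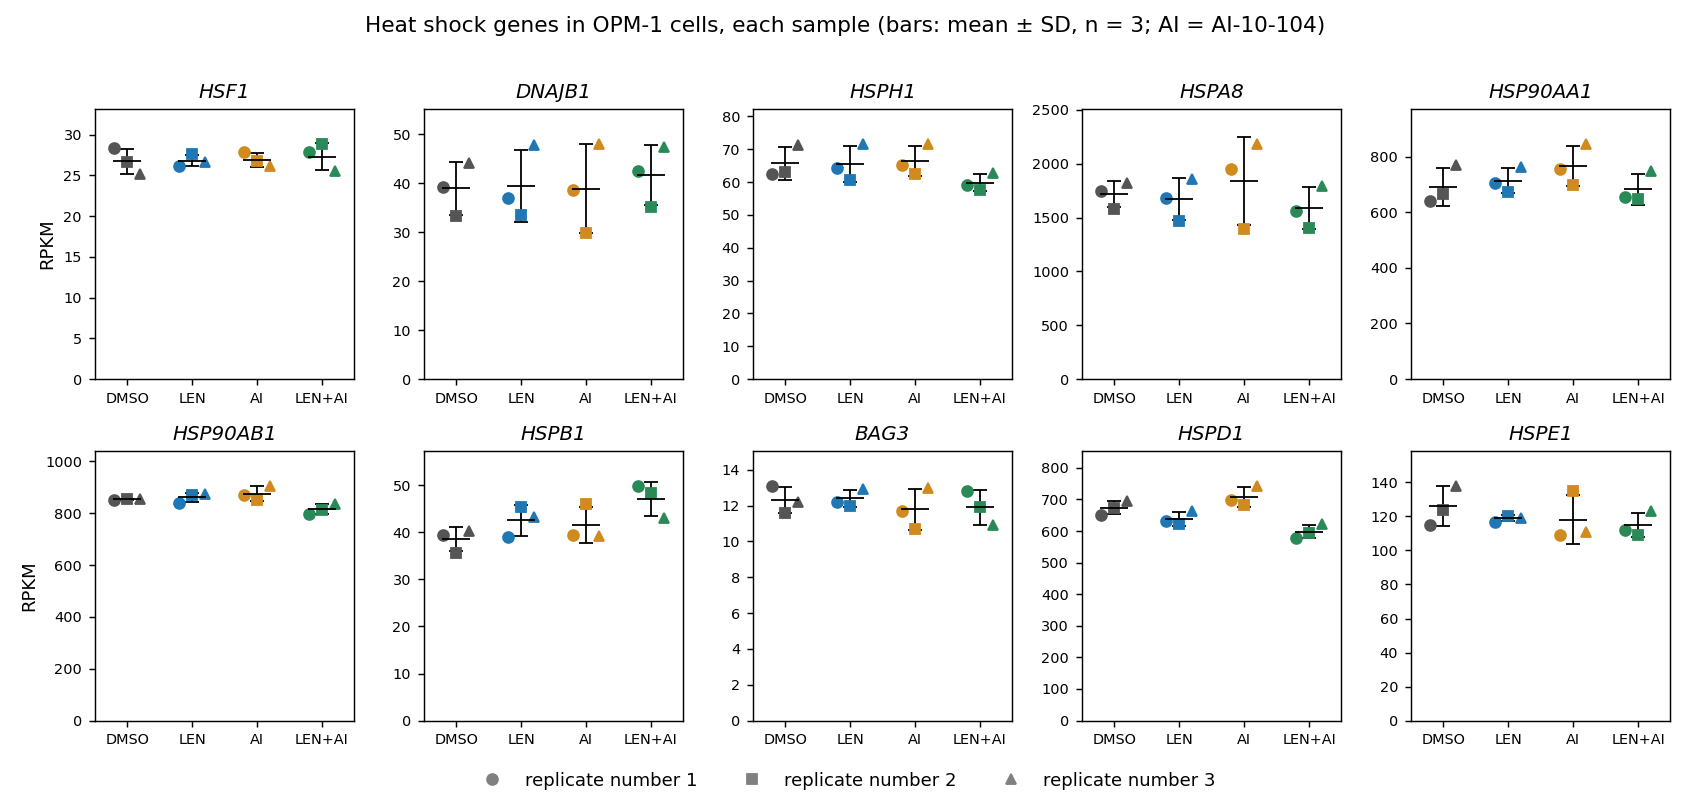
RPKM of the 10 members (vertical axes, each from 0) in every sample, by condition, with the shape of a point giving the replicate number in the sample's label and the black bars the mean ± SD (n = 3). HSPD1 and HSP90AB1 are lowest in LEN+AI-10-104 and HSPB1 is highest there, while in DNAJB1 and HSPA8 the triangles are the highest and the squares the lowest points of each condition.

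The comparisons ask what each drug, and the pair, did to the transcriptome relative to DMSO and whether the pair differed from each drug alone. Those with DMSO share the 3 DMSO samples, and those of LEN+AI-10-104 share its 3 samples, so that their values are given side by side and not as separate evidence. A gene was called where its adjusted p over all 11241 genes was no higher than 0.05 and its log2 fold change was 0.32 or more in either direction. With LEN, limma called 0 of the 10 members, against 0.649% of all genes tested, and 0 members had an unadjusted p under 0.05. With AI-10-104 it also called 0 members, against 1.77% of all genes, again with 0 under 0.05 unadjusted. With LEN+AI-10-104 it called 0 members, against 2.94% of all genes, and 2 were under 0.05 unadjusted. LEN+AI-10-104 compared with LEN gave 0 calls (1.68% of all genes) and 1 member under 0.05 unadjusted, and compared with AI-10-104 it gave 0 calls (3.63% of all genes) and 3 members under 0.05 unadjusted. Limma's voom on the whole reads behind the values likewise called 0 members in each of these comparisons. The share of all genes under 0.05 unadjusted is not given. The counts of members under it, here and below, therefore describe the members only. Between LEN+AI-10-104 and AI-10-104, 15% of all genes passed even the adjusted p alone. The 95% confidence intervals of the 30 changes relative to DMSO reached no further than 0.49 on the log2 scale, so that a log2 change of 1 in any member, in either direction, lay outside its interval. The median log2 fold change of the members relative to DMSO was 0.01 with LEN, 0.03 with AI-10-104 and -0.06 with LEN+AI-10-104, beside 0, 0.01 and 0.02 over all genes tested.

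**Figure D2:**
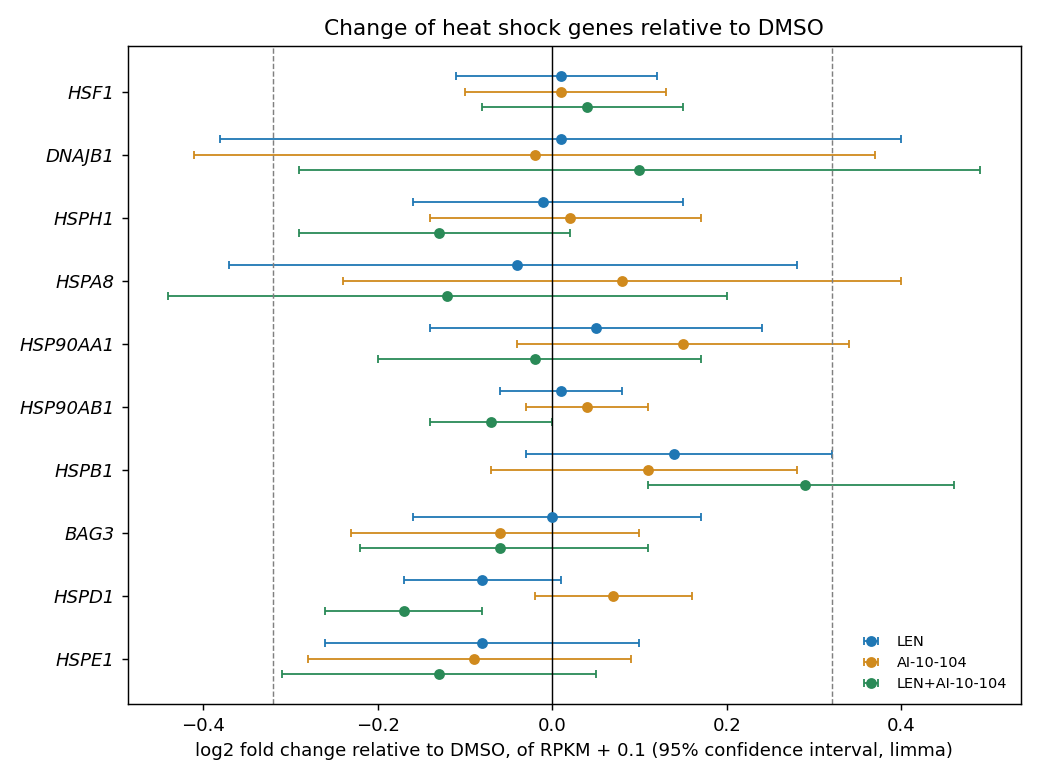
Log2 fold change of RPKM + 0.1 relative to DMSO (horizontal axis) of the 10 members, with points for LEN, AI-10-104 and LEN+AI-10-104 and bars for the 95% confidence interval from limma. The dashed lines mark an absolute change of 0.32, and the intervals of HSPB1 (0.11 to 0.46) and HSPD1 (-0.26 to -0.08) with LEN+AI-10-104 leave 0 out.

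HSPD1 was the member that differed most clearly between conditions. It stood at 652, 674 and 695 RPKM in DMSO replicates 1, 2 and 3, at 632, 621 and 662 RPKM in LEN, at 697, 683 and 743 RPKM in AI-10-104 and at 579, 595 and 621 RPKM in LEN+AI-10-104. The 3 LEN+AI-10-104 samples were below all DMSO and all AI-10-104 samples, whereas the LEN samples overlapped with DMSO, and their lowest value equalled the highest of LEN+AI-10-104 at the precision given. The mean was 674 ± 21.3 RPKM (SD, n = 3) in DMSO and 598 ± 21.4 RPKM in LEN+AI-10-104, a log2 fold change of -0.17 (SE 0.04, limma adjusted p = 0.029) that passed the adjusted p but not the fold change threshold. Relative to AI-10-104 (708 ± 31.3 RPKM) the log2 fold change was -0.24 (SE 0.04, 95% interval -0.34 to -0.15, limma adjusted p = 0.0064). With the samples of both conditions that held LEN set against the other 6, HSPD1 was lower by a log2 difference of -0.16 (SE 0.03, limma adjusted p = 0.0072). LEN alone gave -0.08 (adjusted p = 0.57) and AI-10-104 alone 0.07 (adjusted p = 0.36). Of all genes tested, 8.64% passed the adjusted p alone with LEN+AI-10-104 relative to DMSO, 15% relative to AI-10-104 and 11.9% in the contrast of both LEN conditions with the rest. The adjusted p relative to AI-10-104 was at most 0.038 under all alternatives tried, whereas that relative to DMSO rose above 0.05 when DMSO replicate 2 (0.093), DMSO replicate 3 (0.1), LEN+AI-10-104 replicate 1 (0.11) or LEN+AI-10-104 replicate 2 (0.085) was left out, and when all genes with any value above 0 were tested (0.11).

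The cochaperonin gene HSPE1, which shares its promoter region with HSPD1, had 115, 124 and 138 RPKM in DMSO, 117, 120 and 119 in LEN, 109, 135 and 111 in AI-10-104 and 112, 109 and 123 in LEN+AI-10-104. All 4 conditions overlapped. Its log2 fold change with LEN+AI-10-104 was -0.13 (95% interval -0.31 to 0.05, limma adjusted p = 0.36), an interval that holds the change of HSPD1.

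HSPB1 differed in the other direction. Its RPKM was 39.5, 35.7 and 40.4 in DMSO, 39, 45.5 and 43.2 in LEN, 39.4, 46.1 and 39.3 in AI-10-104 and 49.9, 48.4 and 43 in LEN+AI-10-104. The 3 LEN+AI-10-104 samples were above all DMSO samples, whereas LEN and AI-10-104 overlapped with both. The mean was 38.6 ± 2.47 RPKM (SD, n = 3) in DMSO and 47.1 ± 3.62 RPKM in LEN+AI-10-104, a log2 fold change of 0.29 (SE 0.08, limma adjusted p = 0.047), past the adjusted p and short of the fold change threshold. LEN gave 0.14 (adjusted p = 0.6) and AI-10-104 0.11 (adjusted p = 0.47), and the interaction of the drugs was 0.04 (95% interval -0.21 to 0.29, limma adjusted p = 0.89). This difference stood close to the threshold: without DMSO replicate 2, the lowest sample, it was 0.23 with an adjusted p of 0.17, and the adjusted p also rose above 0.05 without DMSO replicate 1 (0.075) or 3 (0.073), LEN replicate 3 (0.065), AI-10-104 replicate 1 (0.057) or 3 (0.054) and LEN+AI-10-104 replicate 1 (0.16) or 2 (0.13). It did so as well with median-ratio rescaling (0.064) and with all genes above 0 tested (0.12). Without LEN+AI-10-104 replicate 3, the lowest of its condition, HSPB1 was called at 0.35, as were 307 of 11221 genes in all. After samples were corrected for the GC content and length of genes, a choice made after seeing the data, its log2 fold change with AI-10-104 was 0.27 (limma adjusted p = 0.017) in place of 0.11.

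HSP90AB1 had the smallest spread of the members, at 852, 856 and 854 RPKM in DMSO, 841, 869 and 874 in LEN, 872, 850 and 906 in AI-10-104 and 797, 813 and 835 in LEN+AI-10-104. The 3 LEN+AI-10-104 samples were below all 9 other samples. The log2 difference was small, -0.07 relative to DMSO (limma adjusted p = 0.24), -0.08 relative to LEN (0.19) and -0.1 relative to AI-10-104 (SE 0.03, adjusted p = 0.051). Groups without overlap were common over all genes: the LEN+AI-10-104 samples lay all above or all below the DMSO samples in 29.2% of genes, the LEN samples in 26.4% and the AI-10-104 samples in 34.1%. The same held of LEN and DMSO in 16.4% of genes and of AI-10-104 and DMSO in 23.3%, with 0 members in either. Among the members the LEN+AI-10-104 samples stood apart for HSP90AB1, HSPB1 and HSPD1 relative to DMSO, for HSP90AB1 relative to LEN and for HSP90AB1 and HSPD1 relative to AI-10-104.

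The interaction asks whether the effect of LEN differed with AI-10-104 present. Limma passed 0 members and 0% of all genes tested, while 2 members, HSPD1 (-0.16, adjusted p = 0.3) and HSP90AB1 (-0.12, adjusted p = 0.32), had an unadjusted p under 0.05. The 0% did not hold in every setting: without AI-10-104 replicate 2, 557 of 11252 genes passed, still with 0 members. Without LEN+AI-10-104 replicate 3, 2 of 11221 genes passed, and with voom 3 of 11241, again with 0 members. The contrasts over both conditions with each drug, 6 samples against 6, called 0 members for LEN (1.78% of all genes) and 0 for AI-10-104 (1.88% of all genes), with 2 and 1 members under 0.05 unadjusted.

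HSF1 itself hardly varied. It had 28.3, 26.6 and 25.2 RPKM in DMSO, 26.2, 27.6 and 26.6 in LEN, 27.9, 26.7 and 26.2 in AI-10-104 and 27.8, 28.8 and 25.5 in LEN+AI-10-104. All conditions overlapped, and the 3 log2 fold changes relative to DMSO lay between 0.01 and 0.04, with limits of -0.11 and 0.15. These are mRNA levels, and HSF1 is controlled mainly on the protein, which was not measured here. BAG3, an HSF1 target, ranged from 10.7 to 13.1 RPKM, and its log2 fold changes relative to DMSO lay between -0.06 and 0, with limits of -0.23 and 0.17.

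DNAJB1, among the most responsive HSF1 targets, varied between samples of the same condition far more than between conditions. Its RPKM was 39.2, 33.3 and 44 in DMSO replicates 1, 2 and 3, 37, 33.4 and 47.7 in LEN, 38.6, 29.8 and 47.9 in AI-10-104 and 42.4, 35.1 and 47.4 in LEN+AI-10-104. In each of the 4 conditions the sample labelled 3 was the highest and the sample labelled 2 the lowest. The means of the conditions, 38.8 to 41.6 RPKM, spanned 0.12 on the log2 scale, and the means of the 3 replicate numbers spanned 0.51. Of its variation over the 12 samples 89.5% went with the replicate number and 4.28% with the condition, compared with medians of 13.6% and 47.3% over all genes tested.

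HSPA8 had the same order in every condition. It stood at 1750, 1580 and 1820 RPKM in DMSO, 1680, 1470 and 1860 in LEN, 1950, 1390 and 2180 in AI-10-104 and 1560, 1400 and 1790 in LEN+AI-10-104. The replicate number went with 70.4% of its variation and the condition with 14.4%. The widest gap was within AI-10-104, where replicate 2 was the lowest of the 12 samples and replicate 3 the highest. Without AI-10-104 replicate 2, HSPA8 was called lower in LEN+AI-10-104 than in AI-10-104, at a log2 fold change of -0.39 (limma adjusted p = 0.029), whereas with it the value was -0.2 (adjusted p = 0.37). Over all genes, the calls in that comparison were 767 of 11252 without that sample and 408 of 11241 with it. That sample also had the largest typical deviation from the mean of its condition over all genes. Its median absolute deviation, scaled as an SD, was 0.092 log2 units beside 0.05 to 0.081 in the other 11 samples.

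HSP90AA1 and HSPH1 were also highest in the sample labelled 3 of each condition. HSP90AA1 had 640, 665 and 770 RPKM in DMSO, 704, 675 and 764 in LEN, 755, 699 and 845 in AI-10-104 and 654, 649 and 748 in LEN+AI-10-104. HSPH1 had 62.5, 63.1 and 71.4 RPKM in DMSO, 64.4, 60.5 and 71.5 in LEN, 65.3, 62.5 and 71.5 in AI-10-104 and 59.1, 57.7 and 62.7 in LEN+AI-10-104. The conditions overlapped in both genes. The replicate number went with 64.9% of the variation of HSP90AA1 and 59.9% of that of HSPH1. Relative to DMSO, HSP90AA1 was at 0.15 with AI-10-104 (95% interval -0.04 to 0.34, limma adjusted p = 0.35) and HSPH1 at -0.13 with LEN+AI-10-104 (-0.29 to 0.02, adjusted p = 0.29). These intervals include the spread between replicate numbers. In a second fit that added the replicate number, both changes passed the adjusted p but not the fold change threshold, as given under the dependence on processing. The numbers did not meet the rule for pairing that is given there.

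With HSPD1, 5 of the 10 members had their highest value in the sample labelled 3 in all 4 conditions, which 4.16% of all genes tested did, and the order of all 3 numbers was the same in each condition for 2 members, DNAJB1 and HSPA8, and for 1.31% of all genes. HSF1, HSP90AB1, HSPB1, BAG3 and HSPE1 had no such number. The labels number the replicates but do not say what samples of equal number share, such as a culture or a day. By label, each condition held 1 sample of each number, whatever the numbers stand for.

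**Figure D3:**
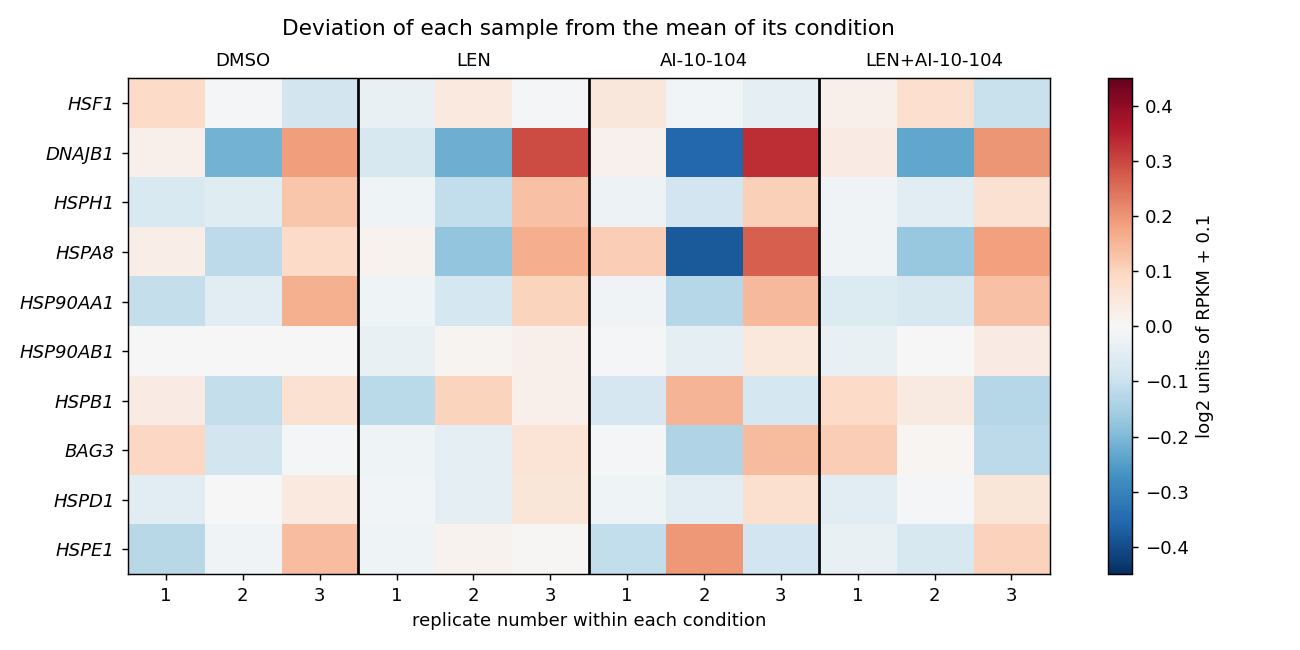
Deviation of each sample from the mean of its condition for the 10 members (rows), in log2 units of RPKM + 0.1, with the 3 replicate numbers of each condition side by side. DNAJB1, HSPH1, HSPA8, HSP90AA1 and HSPD1 are above the mean (red) in number 3 of all 4 conditions, and DNAJB1 and HSPA8 are lowest (blue) in number 2, most of all in AI-10-104.

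The surrounding network was described with 7 lists of 62 further chaperone and heat shock genes, of which 47 passed the filter on low values. Limma called 0 of the 47 with LEN, 1 with AI-10-104, 2 with LEN+AI-10-104, 1 between LEN+AI-10-104 and LEN and 2 between LEN+AI-10-104 and AI-10-104, all of them higher. Their median log2 fold changes in these 5 comparisons were -0.03, 0, -0.05, -0.03 and -0.07, beside 0, 0.01, 0.02, 0.02 and 0.02 over all genes tested. HSPA4L, an HSP110 relative of HSPH1, had 9.44, 10.1 and 10 RPKM in DMSO and 14.9, 13.1 and 15.5 in AI-10-104. The AI-10-104 samples were above all DMSO samples, and HSPA4L rose by a log2 fold change of 0.55 (SE 0.06, limma adjusted p = 0.00037) with AI-10-104 and by 0.37 (adjusted p = 0.0037) with LEN+AI-10-104. HSF4, a relative of HSF1 known mainly from the lens, was low throughout, at 3.75 ± 0.145 RPKM (SD, n = 3) in DMSO and 4.87 ± 0.383 in LEN+AI-10-104, and rose by 0.37 relative to DMSO (adjusted p = 0.029), by 0.36 relative to LEN (0.047) and by 0.37 relative to AI-10-104 (0.023). SERPINH1, the collagen chaperone HSP47, was higher in LEN+AI-10-104 (6.84 ± 0.62 RPKM) than in AI-10-104 (5.22 ± 0.304 RPKM) by 0.38 (adjusted p = 0.019).

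The inducible HSP70 genes that mark an acute heat shock response were listed at or near 0 in this matrix. HSPA1A and HSPA1L were listed at 0 in all 12 samples. HSPA1B had 0.0469 to 0.124 RPKM on 15 to 45 reads. HSPA6, the HSP70 most strictly limited to stress, had 0.0702 to 0.22 RPKM on 4 to 12 reads. RPKM is scaled by gene length, so HSPA1B had the lower RPKM range but the more reads. HSPA1A and HSPA1B are nearly identical, so the division of reads between them is uncertain, and how reads that fit both were counted was not tested. Their low values therefore do not show that the genes were silent. DNAJA3, a mitochondrial HSP40 used by most cells, was also listed at 0 in 11 samples, so that a 0 in this matrix need not mean that a gene was silent. None of the 6 other small heat shock protein genes, CRYAB among them, reached the filter, and the highest value of any was 0.262 RPKM.

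The adjusted p alone was passed by 1.13% of all genes with LEN, 4.55% with AI-10-104 and 4.62% between LEN+AI-10-104 and LEN, beside the shares given above. Among the 47 listed genes 1 passed higher and 0 lower with LEN, 2 and 1 with AI-10-104, 3 and 3 with LEN+AI-10-104, 2 and 1 between LEN+AI-10-104 and LEN and 4 and 7 between LEN+AI-10-104 and AI-10-104. HSPA9, the mitochondrial HSP70, had a log2 fold change of -0.11 (limma adjusted p = 0.028) with LEN+AI-10-104 relative to DMSO and -0.1 (0.025) relative to AI-10-104, and its exchange factor GRPEL1 had -0.11 (0.039) and -0.16 (0.0075). With them, 2 of the 8 tested genes of the list of mitochondrial chaperones and proteases passed lower relative to DMSO and 0 higher, with a list median of -0.08. Of the 8 subunits of CCT, the chaperonin of the cytosol that folds actin and tubulin, 2 passed lower in LEN+AI-10-104 than in AI-10-104, CCT8 at -0.2 (adjusted p = 0.0089) and CCT2 at -0.12 (0.028), and 0 passed relative to DMSO, where the median was -0.05. Among 14 tested HSP70 cofactors, DNAJB6, an HSP40 that keeps proteins from aggregating, was at 0.22 with LEN (adjusted p = 0.043) and -0.2 with AI-10-104 (0.03), and DNAJB2, an HSP40 best known from neurons, was at 0.26 with LEN+AI-10-104 (0.01). Among 11 tested HSP90 cochaperones, FKBP4 passed at -0.15 with LEN+AI-10-104 relative to DMSO (0.046) and PTGES3, known as p23, at -0.17 relative to AI-10-104 (0.042). HSF2 was at 0.24 with AI-10-104 relative to DMSO (limma adjusted p = 0.05).

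**Figure D4:**
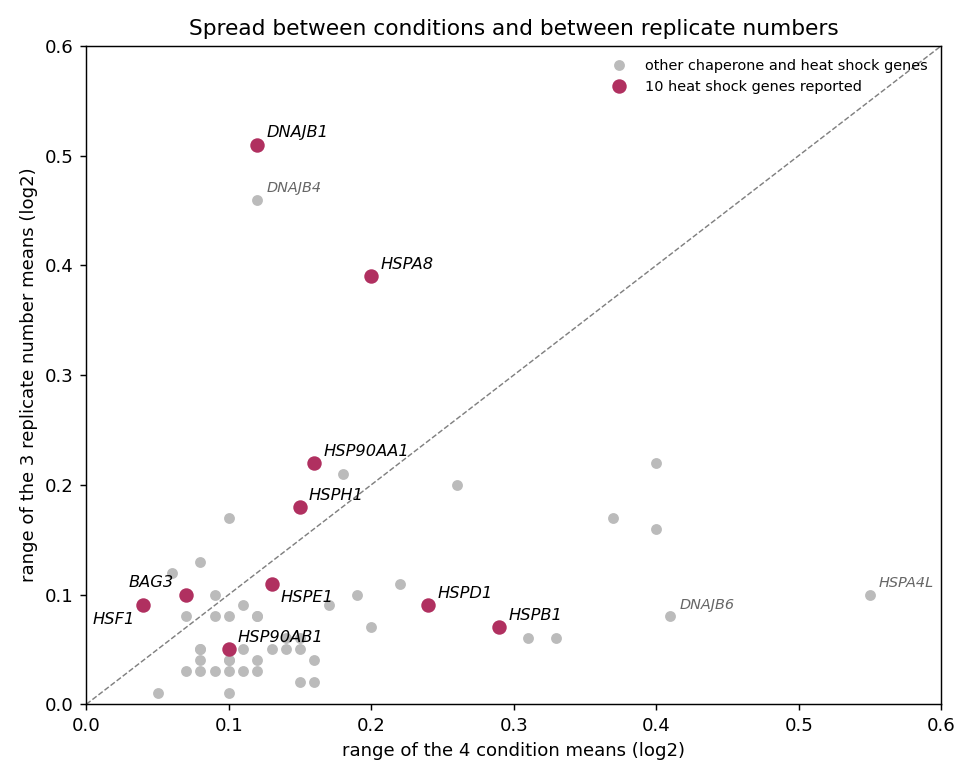
For each of the 10 members (dark points) and the 47 other chaperone and heat shock genes tested (grey points), the range of the 4 condition means (horizontal axis, log2) against the range of the 3 replicate number means (vertical axis, log2), with the dashed line marking equal ranges. DNAJB1 (0.12 and 0.51), DNAJB4 (0.12 and 0.46) and HSPA8 (0.2 and 0.39) lie far above the line, whereas HSPB1 (0.29 and 0.07), HSPD1 (0.24 and 0.09) and HSPA4L (0.55 and 0.1) lie below it.

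The genes most like HSPD1 and HSPB1, the members with the largest range of condition means, were found among 7018 genes by the root mean square difference of their centred log2 values over the 12 samples. For HSPD1 these were NARS, a cytosolic asparaginyl-tRNA synthetase gene (0.0286 log2 units), TMEM267 (0.0335) and EIF3E, a subunit of translation initiation factor 3 (0.0339), where the values of HSPD1 around their own mean had a root mean square of 0.0997. EIF3E averaged 87.2 ± 2.87 RPKM (SD, n = 3) in DMSO, 91.3 ± 4.62 in AI-10-104 and 77.6 ± 2.67 with the pair. For HSPB1 they were TLE1, a transcriptional corepressor gene (0.0605), LOC728743 (0.0651) and LIME1 (0.069), against a root mean square of 0.138 for HSPB1 itself. CHORDC1, a cochaperone of HSP90 and chosen here after its values were seen, was the nearest gene both to HSPH1 (0.0327) and to HSP90AA1 (0.0456).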

How the data were processed

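Polyadenylated RNA of the 12 OPM-1 samples was measured. The authors aligned the reads to GRCh38 (STAR, Cuffnorm and DESeq2 are named in the submitters' processing notes) and deposited RPKM values with the gene lengths used, and no counts. The tests had been planned for FPKM and were run on the RPKM unchanged. Reads per gene, computed back from value and length, came out whole for 100% of values (tolerance 0.02 reads). Groups and replicate numbers come from the sample titles. All genes averaging 0.5 RPKM or more over the samples were fitted on log2(RPKM + 0.1), on which low genes' changes are understated, with limma 3.58.1 in R 4.3.3, 1 mean per condition over all 12 samples, a variance trend and Benjamini-Hochberg adjustment over the 11241 genes tested. Shares of variation are sums of squares of a fit of condition and replicate number. A second limma fit added the replicate number. Of the 38478 names, 28 were spreadsheet date numbers and were kept. Exon overlaps are from GENCODE 44. Named are the members, the genes of the lists, pseudogenes found by symbol and the 3 most similar genes (mean of at least 5 RPKM) of the 2 members with the largest range of condition means. The members and lists were chosen with earlier results of these data known. Alternatives were a pseudocount of 1, a minimum mean of 1 RPKM, no minimum beyond a value above 0, quantile normalization, rescaling by median ratios, compared conditions only, the replicate block, no fold change threshold, voom, leaving out each sample and, chosen after seeing the data, a lowess correction (span 0.3) for GC content and gene length with and without the block. The fit was tested on simulated data. The authors' count model was not run: the tests were planned for the deposited normalized values, and among the fits only voom used the reads computed back. Tables and figures were made with pandas 2.3.3, numpy 2.4.6 and matplotlib 3.10.9 under Python 3.11.15. No sample was left out. Whether reads were counted by strand is not given in the sources used here. Read numbers cover counting error only, since the reads carry no molecular identifiers.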

Additional observations from a re-analysis of the deposited data

How the results depend on the processing

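The count of called members stayed at 0 in each of the 8 comparisons under the alternatives, with these exceptions. With no fold change threshold it was 2 for LEN+AI-10-104 against DMSO (HSPB1 and HSPD1), 1 for LEN+AI-10-104 against AI-10-104 (HSPD1) and 1 for the LEN conditions against the rest (HSPD1). Leaving out 1 sample at a time gave 0 to 1 called members for LEN+AI-10-104 against DMSO (HSPB1, without LEN+AI-10-104 replicate 3) and 0 to 1 for LEN+AI-10-104 against AI-10-104 (HSPA8, without AI-10-104 replicate 2), and 0 in the other comparisons.

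The adjusted p of HSPB1 against DMSO ranged from 0.012 to 0.17 and passed in 11 of 22 settings, and that of HSPD1 ranged from 0.0012 to 0.11 and passed in 17 of 22. HSPD1 against AI-10-104 passed in 22 of 22. HSP90AB1 against AI-10-104 passed in only some settings, with an adjusted p of 0.0091 to 0.2. With the correction for GC content and gene length, HSP90AB1 also passed against DMSO (0.036) and LEN (0.028), HSPD1 against LEN (0.047) and HSPB1 in AI-10-104 against DMSO (0.017). Of 80 member values, 36 changed sign in at least 1 setting, none of them a value given in the report as passing the adjusted p.

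With the replicate number as a block, 0 members were called. The adjusted p alone was then also passed by HSPH1 in LEN+AI-10-104 against DMSO (0.026), LEN (0.044) and AI-10-104 (0.014) and in the LEN conditions against the rest (0.044), by HSP90AA1 in AI-10-104 against DMSO (0.048) and LEN+AI-10-104 against AI-10-104 (0.018) and by HSP90AB1 in the latter (0.041), while HSPB1 against DMSO had 0.055. The share of all genes passing the adjusted p alone in that fit is not given. The numbers did not meet the rule for pairing: r between equally numbered samples was -0.027 to 0.155 (mean 0.052), over 0.1 in 2 of 18 pairs. With 3 samples per condition, members as variable as DNAJB1 have intervals of about 0.4 on either side of the estimate.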

Other observations

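In the fit with the replicate number, limma's test of that number over all 3 of its levels passed the adjusted p for 0.089% of the 11241 genes tested, and the first of them by rank were a pair of HSP40 genes, DNAJB4 (rank 1) and DNAJB1 (rank 2), each with an adjusted p of 0.019. Further heat shock genes ranked high without passing, with HSP90AA1 at rank 17 (adjusted p = 0.079), HSPH1 at rank 19 (0.089), DNAJA1 at rank 31 (0.11), CHORDC1 at rank 34 (0.12) and HSPA8 at rank 37 (0.13). The other members ranked far lower, with HSPD1 at 481, HSF1 at 1764, HSPE1 at 4484, HSP90AB1 at 4845, BAG3 at 5135 and HSPB1 at 7854, as did listed cochaperone genes such as STIP1 (9076) and SUGT1 (10495). DNAJB4 had 4.62, 4.19 and 5.83 RPKM in DMSO, 4.77, 3.87 and 5.51 in LEN, 4.64, 4.39 and 5.78 in AI-10-104 and 4.81, 4.45 and 6.17 in LEN+AI-10-104, so that number 3 was the highest and number 2 the lowest throughout. Of the 47 listed genes tested, 10 were highest in number 3 in all 4 conditions, beside 4.16% of all genes.

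RBM3 and CIRBP, genes of RNA-binding proteins known to be induced by mild cold, had the opposite order and were chosen here because their values were seen to have it, so their values are a description only. RBM3 had 59.8, 69.8 and 59.7 RPKM in DMSO, 56.5, 63.8 and 51.8 in LEN, 52.9, 67.5 and 49.7 in AI-10-104 and 65.3, 73 and 63.8 in LEN+AI-10-104. Number 2 was the highest and number 3 the lowest in each condition, as also for CIRBP and for 0.356% of all genes tested. What the numbers stand for is not given in the labels, and a cause of either order was not tested.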
